A study of Mus musculus with 6 samples.

Results

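Tumor fibroblasts were the type I collagen-producing cells of mouse mammary tumors that had been taken apart into single cells. They were chosen by the counts of 5 genes in each cell and not by clustering. A kept cell held 200 to 4000 detected genes and at most 25% mitochondrial UMIs (unique molecular identifiers, each standing for 1 captured RNA molecule). A fibroblast was a kept cell with at least 20 UMIs of Col1a1 and Col1a2 together, at most 2 UMIs of the pericyte gene Rgs5, and no UMI of the endothelial gene Pecam1 or the leukocyte gene Ptprc. The rule found 376 fibroblasts among 17562 kept tumor cells, from 24527 deposited tumor cells and 58561 cells in the whole series.

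The study compared a microfluidic platform, which digests, shears and filters minced tissue in flow, with standard digestion. All 3 tumor libraries came from female MMTV-PyMT mice aged 10 weeks, in which the mouse mammary tumor virus promoter drives the polyoma middle T antigen in mammary epithelium and not in fibroblasts. Minced tumor was digested in 0.25% type I collagenase as a 60 min control (Tumor Control 60 min) or in the device. Device cells were collected at a 15 min interval (Tumor Platform 15 min) and a 60 min interval (Tumor Platform 60 min). All cells were then treated with DNase I and red cell lysis buffer and sorted as SytoxBlue-negative live cells before droplet capture. Each condition was 1 library, so no difference below has a replicate check or a test. Intervals are 95% intervals for counting error only, and a ratio of at least 2 in either direction ("past 2-fold") is a rule of size. Per the study's methods, control and device conditions of a replicate used tissue from 1 source mouse, and both device intervals were collected in sequence from the same loaded tissue.

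Fibroblasts build the fibrous matrix of tissue. They secrete fibrillar collagens, which processing enzymes trim and crosslink, together with proteoglycans, elastic fibre proteins and matricellular proteins that tune adhesion and growth factor access. In mammary tumors they occur in several states, among them matrix-producing and contractile cells, inflammatory cells that secrete cytokines, and adventitial cells carrying Dpp4, Cd34 and Ly6a. Warm enzymatic digestion is itself known to induce immediate early and heat shock genes in many cell types.

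The fibroblast share of kept cells was lowest in the control and highest in the 60 min platform interval. The control held 35 fibroblasts of 5736 kept cells, 0.610% (0.425 to 0.848, exact Clopper-Pearson). Tumor Platform 15 min held 63 of 5802, 1.09% (0.835 to 1.39). Tumor Platform 60 min held 278 of 6024, 4.61% (4.10 to 5.18). The share at 60 min in the platform was 7.56 times that of the control (5.33 to 10.7) and 4.25 times that of the 15 min interval (3.24 to 5.57), and the 15 min share was 1.78 times that of the control (1.18 to 2.69). The study weighted the 15 min interval by 1 and the 60 min interval by 1.5, as estimates of cell yield relative to the control. Added with these weights, the platform shares came to 8.01% of the control's cell number, 13.1 times the control share (9.28 to 18.6). This sum is a yield and not a share of platform cells. The weights add to more than 1, so a cell type with an unchanged share would also score above the control. The upper limit of 4000 genes bore on these cells more than on others. It removed 540 of the 928 cells that met the gene rule (58.2%), against 17.2% of all tumor cells with at least 200 genes, and in the control it removed 68.8% of them. With no ceiling on genes or on the mitochondrial percentage ("without the upper limits" from here on), the shares were 1.58% (125 of 7913), 1.86% (149 of 8025) and 8.20% (654 of 7974). The 60 min platform over control ratio was then 5.19 (4.30 to 6.27) and the 15 min over control ratio was 1.18 (0.929 to 1.49).

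**Figure D1:**
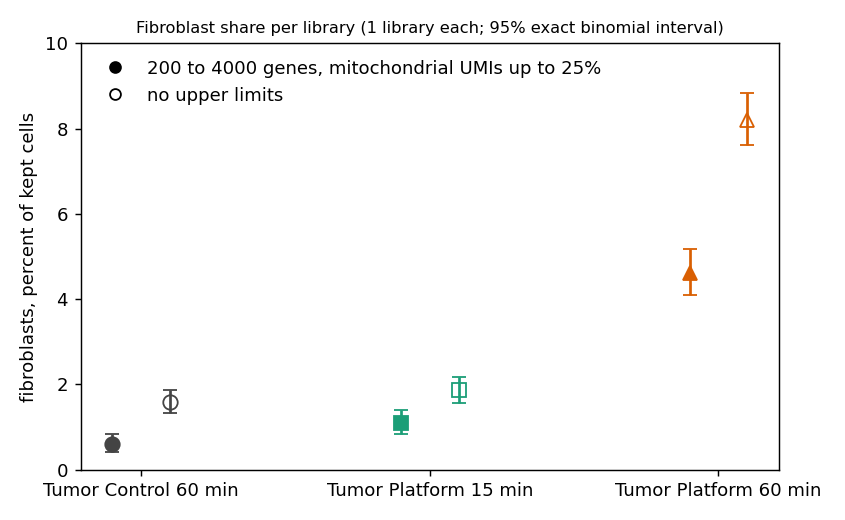
Fibroblasts as a percent of kept cells in each tumor library, with 95% exact binomial intervals. Filled symbols use the limits of 200 to 4000 genes and 25% mitochondrial UMIs, open symbols use no upper limits; Tumor Platform 60 min sits at 4.61% and 8.20%, above the other 2 libraries in both.

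The fibroblasts of Tumor Platform 60 min were the deepest. Their median was 11715 UMIs and 3168 genes, against 9196 UMIs and 2865 genes at 15 min and 8222 UMIs and 2550 genes in the control. Median mitochondrial shares were 4.02%, 4.20% and 8.29%. Summed UMIs were 3167755, 551363 and 359977, so sums of the control are the least precise. Just below the collagen threshold, the 10 cells with 15 to 19 collagen UMIs had a median of 943.5 UMIs in all. Their medians were 1 UMI of Dcn, the proteoglycan decorin, and 9 UMIs of Col3a1, another fibrillar collagen. The 8 cells with 20 to 24 had a median of 4405 UMIs, 24.5 UMIs of Dcn and 41.5 UMIs of Col3a1. The cells below the threshold were thus shallower, and whether they were fibroblasts was not tested. Between 16 and 21 cell barcodes were shared by each pair of libraries, and 1 of these cells was a fibroblast.

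Markers that the rule did not use were present in these cells. Col3a1 (14487, 14651 and 11623 CPM, UMIs of the gene scaled to equal library totals, in the order control, platform 15 min, platform 60 min) and Dcn (5811, 6745 and 5223 CPM) were among the 15 most abundant genes by mean level over the libraries. After each cell was thinned to 2000 UMIs, a Dcn UMI was found in 32 of 35, 58 of 58 and 257 of 272 fibroblasts (91.4%, 100% and 94.5%; 97.1%, 100% and 96.4% unthinned), against 0.679% of leukocytes (3.25% unthinned), a class that should lack it. Median depth was 11114 UMIs in fibroblasts and 10325 UMIs in leukocytes. Pdgfra, a platelet-derived growth factor receptor of fibroblasts, stood at 325, 404 and 292 CPM. Among the genes named by the highest ratio of fibroblasts over all other kept tumor cells in the lowest of the 3 libraries, Dpep1, a dipeptidase, led with 228, 229 and 206 CPM against 0.0795, 0.239 and 0.365 CPM in the other cells. The elastic fibre genes Mfap5 and Fbln1, the Wnt inhibitor Sfrp4 and the hyaluronan synthase Has1 were also among the top 20. These ratios follow from how the cells were picked and are a description.

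Markers of other cell types were low. Summed over 8 macrophage markers the level was 80.6, 65.3 and 56.5 CPM, with the selected Ptprc at 0. It was 0, 10.9 and 9.79 CPM over 6 T lymphocyte markers, with Cd8a at 0 in all 3. It was 33.3, 7.25 and 4.74 CPM over 5 granulocyte markers with Csf3r at 0 in all 3, and 41.7, 34.5 and 47.0 CPM over 7 endothelial markers, among which the rule fixed Pecam1 at 0. Over 5 Schwann cell markers it was 16.7, 34.5 and 18.6 CPM. The 8 pericyte markers, with Rgs5 capped by the rule, summed to 203, 196 and 370 CPM, of which Pdgfrb, shared by fibroblasts, held 128, 140 and 282 CPM. The 10 epithelial markers were higher, at 995, 925 and 579 CPM. Most of that was the milk protein gene Csn3 (264, 307 and 266 CPM), Wfdc18 (164, 170 and 141 CPM), Trf and Krt8. Trf stood at 117, 223 and 69.8 CPM and Krt8 at 250, 45.3 and 26.2 CPM. In the control 86.7% of the Krt8 UMIs lay in 1 cell. Krt5 was at 0 in all 3 libraries. Scrublet, a doublet caller, marked 6 of the 376 fibroblasts.

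Across the 4273 genes with a mean of at least 30 CPM, 279 (6.53%) were higher past 2-fold in Tumor Platform 60 min than in the control and 210 (4.91%) were lower. For Tumor Platform 15 min over the control, 278 (6.51%) were higher and 178 (4.17%) lower. For the 60 min over the 15 min interval, 204 (4.77%) were higher and 283 (6.62%) lower. With TMM factors in place of total UMIs the last pair of counts turned to 298 higher and 170 lower, and the pair for 15 min over control to 170 higher and 247 lower. The median log2 ratio over all these genes was 0.06, 0.15 and -0.08. The comparisons share libraries pairwise, so they are not independent of each other.

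Summed over all fibroblasts of a library, matricellular genes separated the 60 min platform interval from both other libraries. Of 17 entered genes for matricellular and adhesive glycoproteins, 8 were higher and 4 lower past 2-fold in Tumor Platform 60 min than in the control, where 6.53% of all genes were higher and 4.91% lower. The list's median log2 ratio was 0.78. Over the 15 min interval, 10 were higher and 2 lower, with a median of 1.09, against 4.77% higher and 6.62% lower among all genes. For 15 min over control none was higher and 3 were lower, against 6.51% higher and 4.17% lower among all genes. The list's summed level was 16673, 15977 and 26235 CPM. The difference was not seen in every sub-cluster described below. There the 60 min sum was below the control in 2 of the 4 sub-clusters with control cells. It was above the 15 min sum in 3 of 5. The 8 and the 10 higher genes include Postn and Thbs4, picked as markers with earlier results known. The 10 also include Spp1, at 708 CPM in pooled fibroblasts and 17112 CPM in pooled epithelial cells. Its fibroblast level cannot be told apart from background RNA.

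Thbs4, a thrombospondin of tendon and injured matrix (chromosome 13, 92751590 to 92794818, minus strand, GRCm38), stood at 514 CPM in the control, 553 CPM at 15 min and 1735 CPM at 60 min in the platform. It was 3.38 times the control in the last (2.91 to 3.93), and the first 2 libraries were alike in level. A Thbs4 UMI was found in 10 of 35, 11 of 58 and 123 of 272 thinned fibroblasts (31.4%, 22.2% and 54.0% unthinned), against 0.0377% of leukocytes (0.715% unthinned). Postn, or periostin (chromosome 3, 54361109 to 54391037, plus strand), was also highest at 60 min in the platform, at 2325, 2095 and 4652 CPM. Thbs4 and Postn had been picked as markers of these cells with earlier results known, so their levels are a description. Ctgf, a secreted factor of activated fibroblasts, stood at 183, 174 and 602 CPM. Wisp1, of the same CCN family, stood at 38.9, 63.5 and 180 CPM. Sparc (chromosome 11, 55394500 to 55423183, minus strand), which binds collagen, was lowest in the control and highest at 60 min in the platform, at 4973, 7070 and 12817 CPM. Not all of the list went this way: Fn1, or fibronectin, was highest in the control at 5317 CPM, with 3747 and 2103 CPM in the platform intervals, and Thbs3 stood at 233, 158 and 75.1 CPM.

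Mgp, or matrix Gla protein, an inhibitor of calcification (chromosome 6, 136872435 to 136875823, minus strand), stood at 2122, 4654 and 14592 CPM, 6.88 times the control at 60 min (6.40 to 7.39) and 2.19 times at 15 min (2.02 to 2.38). It was found in 14 of 35, 18 of 58 and 211 of 272 thinned fibroblasts (48.6%, 38.1% and 82.4% unthinned), with 1.66% of leukocytes (7.40% unthinned). The share of cells with Mgp was thus lower at 15 min than in the control while its level was higher, and 27.7% of its 15 min UMIs lay in 1 cell. Bgn, the proteoglycan biglycan, stood at 2072, 2088 and 5846 CPM. Mfap4, of elastic fibres, stood at 314, 417 and 1116 CPM, and elastin itself, Eln, at 428, 502 and 1019 CPM. Both were past 2-fold over each of the other libraries at 60 min in the platform.

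Collagen genes differed less. Col1a1 and Col1a2 chose the cells and are left out here. Among the other 6 entered fibrillar collagen genes none was lower and 1 was higher past 2-fold at 60 min in the platform over the control, against 6.53% higher among all genes. That gene was Col11a1, a minor fibrillar collagen, with 41.7, 79.8 and 103 CPM from 15, 44 and 327 UMIs. Col3a1 was 0.802 of the control there (0.779 to 0.826), and Col5a2, which joins type I fibrils, stood at 1153, 1201 and 1692 CPM. Of 9 network and other collagens, Col8a1 (317, 283 and 846 CPM) and the basement membrane collagen Col15a1 (117, 187 and 269 CPM) were past 2-fold over the control at 60 min. Among 19 processing and crosslinking genes, Fkbp10, a collagen chaperone (103, 120 and 220 CPM), and Lox, or lysyl oxidase (211, 341 and 432 CPM), were higher past 2-fold. Pcolce2, an enhancer of procollagen cleavage, was lower at 60 min with 364, 562 and 167 CPM. The counts for the network and processing lists stand beside 6.53% higher and 4.91% lower among all genes. Those for the 19 processing genes are near these shares. Serpinh1, the collagen chaperone of the endoplasmic reticulum, stood at 1320, 1558 and 2576 CPM, 1.95 times the control (1.78 to 2.15).

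Contractile genes were low in all libraries, summing to 564, 501 and 997 CPM over 12 genes. Of the 8 that entered, 5 were higher past 2-fold and none lower at 60 min in the platform over the control, with a median log2 ratio of 1.04. Among all genes 6.53% were higher and 4.91% lower. Acta2, smooth muscle actin, stood at 61.1, 52.6 and 192 CPM, and Tagln, an actin-binding protein, at 111, 59.9 and 266 CPM. Acta2 UMIs came from 5, 11 and 87 cells, with 40.9% of the control UMIs in 1 cell. Myh11, the smooth muscle myosin, was at 0 throughout. With every fibroblast thinned to 2000 UMIs the summed ratio of this list at 60 min over control was 1.15 rather than 1.77, and at 15 min over control it was 0.460 rather than 0.888. Without the upper limits it was 2.23 and 1.25, and the ratio of Tagln at 60 min over control was 4.04 rather than 2.39.

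Adventitial genes ran the other way and were highest in the 15 min interval. The 12 genes summed to 7984 CPM in the control, 11112 CPM at 15 min and 4613 CPM at 60 min in the platform. For 60 min over 15 min, 9 of 12 were lower past 2-fold and none higher, against 6.62% lower among all genes, with a median log2 ratio of -1.52. For 60 min over control 5 were lower and 1 higher, with a median of -0.96, against 4.91% lower and 6.53% higher among all genes. For 15 min over control 2 were higher and none lower, with a median of 0.69, against 6.51% higher and 4.17% lower among all genes. Without the upper limits the 15 min over control ratio of the summed list was 0.877 rather than 1.39, while 60 min over 15 min was 0.480 against 0.415. The 15 min over control ratio then turned to 0.928 for Sema3c (from 1.71) and 0.956 for Cd55 (from 1.61), and that of Dpp4 was 1.02 (from 2.08). Those of Ly6c1 and Pi16 turned to 0.891 (from 1.43) and 0.948 (from 1.62).

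Sema3c, a secreted guidance factor (chromosome 5, 17574281 to 17730268, plus strand), stood at 286, 488 and 109 CPM. The 60 min level was 0.223 of the 15 min level (0.190 to 0.263). Cd55, which protects cells from complement, stood at 331, 533 and 120 CPM, and Dpp4, a surface peptidase (chromosome 2, 62330073 to 62412231, minus strand), at 156, 323 and 84.0 CPM. A Dpp4 UMI was found in 7 of 35, 23 of 58 and 35 of 272 thinned fibroblasts (45.7%, 60.3% and 27.0% unthinned) and in 0.868% of leukocytes (3.32% unthinned). Ly6c1, a surface marker of adventitial fibroblasts in the mouse, stood at 883, 1261 and 423 CPM, Anxa3 at 394, 941 and 294 CPM, and Cd34, a sialomucin, at 428, 724 and 226 CPM. Pi16 was an exception, with 911, 1480 and 1035 CPM and a UMI in 54.3%, 67.2% and 64.7% of thinned fibroblasts (77.1%, 82.5% and 83.1% unthinned; 1.96% and 5.22% of leukocytes). Col15a1 was the member higher past 2-fold at 60 min over the control. Fabp4, a fatty acid carrier, was lowest at 60 min too (153, 263 and 40.4 CPM), but 58.6% of its 15 min UMIs came from 1 cell, and without the upper limits its 60 min over 15 min ratio was 0.526 rather than 0.154.

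**Figure D2:**
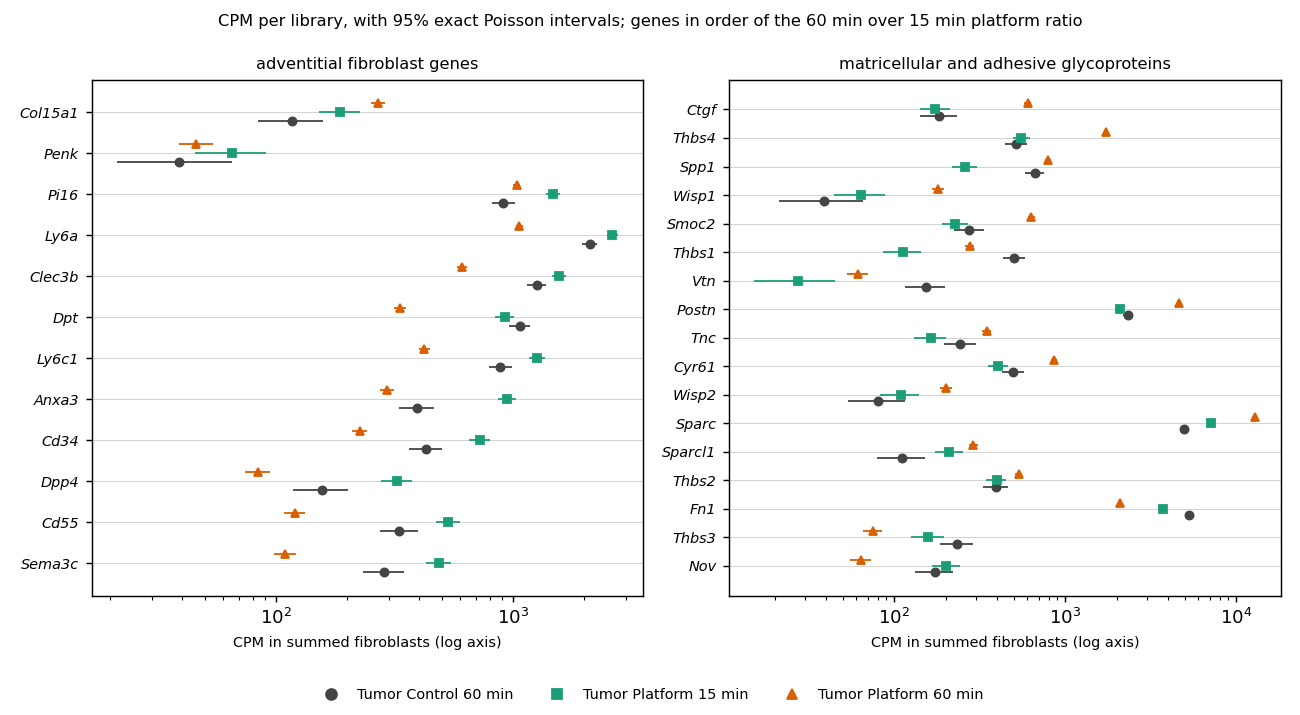
Levels of adventitial and matricellular genes in summed fibroblasts, in CPM on a log axis, with 95% exact Poisson intervals. In the left panel 9 of 12 genes lie more than 2-fold lower in Tumor Platform 60 min (triangles) than in Tumor Platform 15 min (squares), and in the right panel 10 of 17 lie more than 2-fold higher. Among all genes 6.62% were lower and 4.77% higher.

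For a view by cell, 2 trios of genes were taken after their values were seen: the adventitial Sema3c, Dpp4 and Cd55, and the matricellular Thbs4 and Ctgf with Msc, a transcription factor. The first trio is among the leading genes of sub-cluster 2 and the second among those of sub-cluster 1, both described below. The choice thus favoured a low overlap, and thinning lowers detection of both trios, so the overlap is a description. The counts hold for these genes and not for their lists, since Pi16 and Postn were found in 64.7% and 77.9% of thinned cells at 60 min in the platform (83.1% of cells for each unthinned; 5.22% and 4.36% of leukocytes). Among 365 fibroblasts that could be thinned to 2000 UMIs, 92 (25.2%) had a UMI of the first trio only, 173 (47.4%) of the second only, 17 (4.66%) of both and 83 (22.7%) of neither. The first trio alone was found in 42.9% of control cells (26.3 to 60.6), 51.7% of 15 min cells (38.2 to 65.0) and 17.3% of 60 min platform cells (13.0 to 22.3). The second alone was found in 31.4% (16.9 to 49.3), 22.4% (12.5 to 35.3) and 54.8% (48.7 to 60.8). The share with neither was 22.9%, 22.4% and 22.8%.

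**Figure D3:**
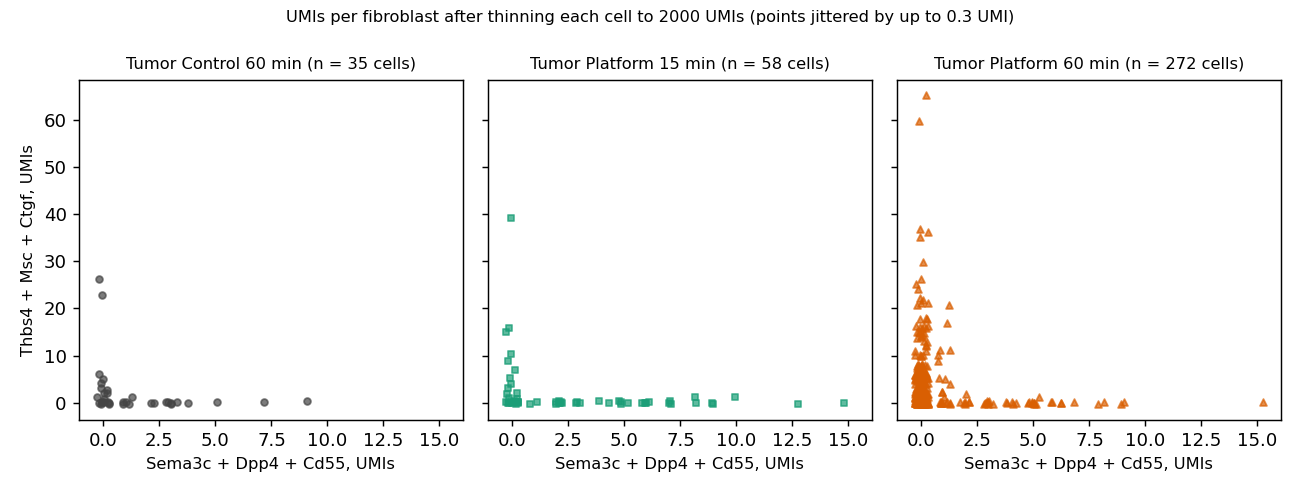
UMIs of Sema3c, Dpp4 and Cd55 (x axis) against UMIs of Thbs4, Msc and Ctgf (y axis) in each fibroblast thinned to 2000 UMIs, 1 panel per library and 1 point per cell. After thinning, 17 of 365 cells held UMIs of both trios, whose genes are among the leading genes of different sub-clusters of these cells.

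Clustering of the 376 fibroblasts gave 5 sub-clusters, called here by number and leading genes, since the genes that define them also differed between libraries. Sub-cluster 1 (120 cells) was led by Msc, Lcn2, Aqp2, Fmod and Adamtsl2 and had Thbs4 at 3224 CPM against 572 CPM in the other fibroblasts. It held 5 of the 6 cells marked by Scrublet and 8 of the 9 with at least 5 UMIs of the epithelial keratins Krt8 and Krt18. Sub-cluster 2 (80 cells) was led by Dmkn, Sema3c, Sbsn and Aldh1a3, with Sema3c at 805 CPM against 18.4 CPM elsewhere and a Dpp4 UMI in 93.8% of cells. Sub-cluster 3 (63 cells) was led by Saa3, an acute phase gene, Vtn, Fabp4, Cyp7b1 and Steap4, with the lipid carrier Apoe at 3130 CPM against 294 CPM. Apoe was found in 98.4% of its cells, while Saa3 lay in few of them. Sub-cluster 4 (61 cells) had the lowest median depth, 5913 UMIs, and was led by Igfbp2, Col8a2, Aqp5, C1qtnf3 and Lrrc15, with smaller ratios than the others. Several stimulus-induced genes were lowest there, with Fos at 950 CPM against 3565 to 4445 CPM and Dusp1 at 205 CPM against 962 to 1430 CPM. Egr2 and Gadd45b were not lowest there. Sub-cluster 5 (52 cells) was led by Chchd10, F5, Aqp1, Crabp1 and Fcgr2b and had the matrix proteases Mmp11 at 670 CPM against 74.7 CPM and Mmp13 at 732 CPM against 92.2 CPM.

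**Figure D4:**
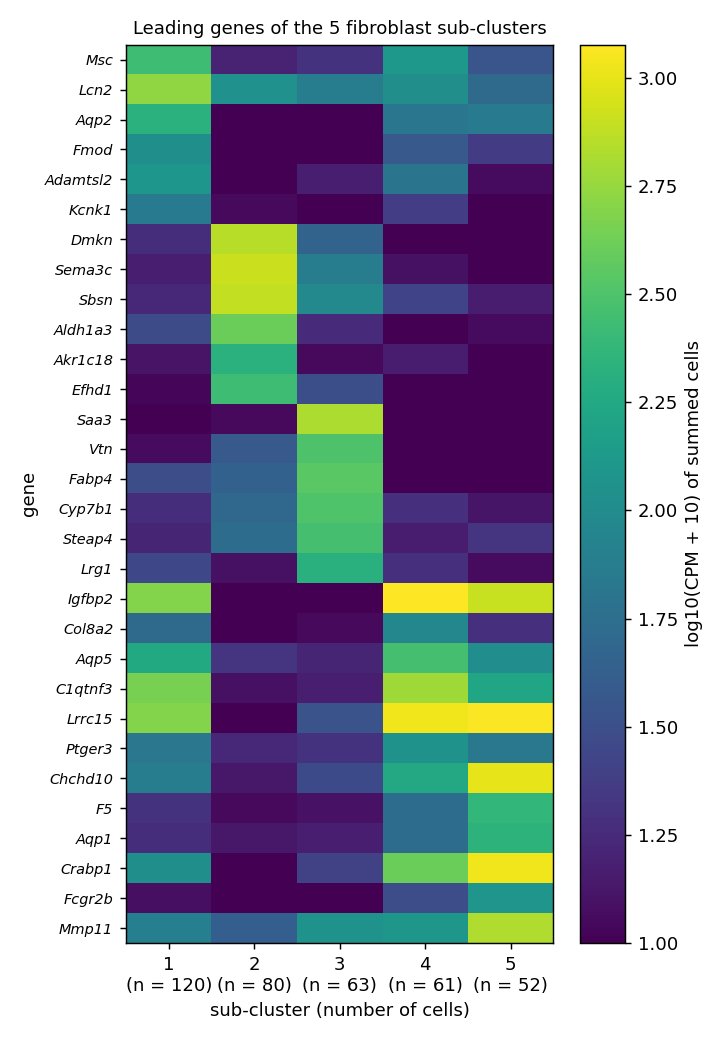
Log10 of CPM plus 10 for the 6 leading genes of each fibroblast sub-cluster, over the summed cells of each sub-cluster. Blocks of sub-clusters 2 and 3 stand apart, while Igfbp2, C1qtnf3 and Lrrc15 of sub-cluster 4 are also raised in sub-clusters 1 and 5.

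Immediate early genes, the transcription factors and regulators induced within minutes of a stimulus, were lowest in the 15 min interval. All 19 listed genes were lower there than in the control, 11 of them past 2-fold and none higher, against 4.17% lower among all genes, with a median log2 ratio of -1.12. Their summed level was 28935, 15193 and 25721 CPM. At 60 min in the platform 8 were higher past 2-fold than at 15 min and none lower (median 0.89), against 4.77% higher and 6.62% lower among all genes. None of the 19 was past 2-fold in either direction over the control at 60 min (median -0.24), against 6.53% higher and 4.91% lower. Fos stood at 4139, 2445 and 3878 CPM and Jun at 3759, 2405 and 4446 CPM. Nr4a1, a nuclear receptor induced by stimulation, stood at 406, 50.8 and 217 CPM, and its 15 min level was 0.125 of the control (0.0804 to 0.189), or 0.235 without the upper limits. Zfp36, an RNA-binding protein that shortens the life of cytokine messages, stood at 1881, 468 and 1147 CPM. Gadd45b was highest at 60 min in the platform, with 356, 134 and 698 CPM. Atf3, a stress-induced transcription factor (chromosome 1, 191170296 to 191218039, minus strand), stood at 1278, 392 and 646 CPM, and Klf4 at 1347, 983 and 682 CPM.

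Heat shock genes were also lowest at 15 min, and highest at 60 min in the platform. The 10 genes summed to 6778, 3685 and 9198 CPM. At 60 min over 15 min, 7 were higher past 2-fold and none lower, with a median log2 ratio of 1.34, against 4.77% higher and 6.62% lower among all genes. At 15 min over control 5 were lower and none higher (median -1.0), against 4.17% lower among all genes. At 60 min over control 3 were higher (median 0.19), against 6.53% of all genes. Hspa1a, the inducible HSP70 chaperone, stood at 697, 136 and 1739 CPM, 12.8 times the 15 min level at 60 min (10.2 to 16.3). Without the upper limits the 15 min level was 0.351 of the control rather than 0.195, and the 60 min level was 4.97 times the control rather than 2.49. Hspa1b stood at 256, 47.2 and 692 CPM. The co-chaperone Dnajb1 stood at 253, 67.1 and 269 CPM and the small heat shock protein Hspb1 at 139, 154 and 484 CPM. The constitutive Hsp90ab1 (1445, 1090 and 1470 CPM) and the mitochondrial Hspd1 (136, 165 and 174 CPM) differed by less than 2-fold in every comparison. Hspa1a was found in 14 of 35, 8 of 58 and 169 of 272 thinned fibroblasts (71.4%, 25.4% and 75.5% unthinned). Leukocytes held it too, in 41.7% of thinned cells (55.5% unthinned), so no background share can be set for it.

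Hspa1a and Hspa1b are neighbouring copies whose RNAs are nearly the same, so how their reads were split between them is uncertain. The 250 bases before each start are printed because these genes had the largest ratios of the heat shock list at 60 min over 15 min, with the heat shock element searched (GAANNTTC, which reads the same on both strands) in capitals. The sequences are from RefSeq on GRCm38.p6, at chr17:34972157-34972406 for Hspa1a and chr17:34959239-34959488 for Hspa1b, both minus strand.
Hspa1a: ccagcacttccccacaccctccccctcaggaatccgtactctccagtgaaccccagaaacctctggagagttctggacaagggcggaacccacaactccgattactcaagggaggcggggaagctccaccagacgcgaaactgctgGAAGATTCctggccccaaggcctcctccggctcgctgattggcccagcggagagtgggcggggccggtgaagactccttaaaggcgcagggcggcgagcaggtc
Hspa1b: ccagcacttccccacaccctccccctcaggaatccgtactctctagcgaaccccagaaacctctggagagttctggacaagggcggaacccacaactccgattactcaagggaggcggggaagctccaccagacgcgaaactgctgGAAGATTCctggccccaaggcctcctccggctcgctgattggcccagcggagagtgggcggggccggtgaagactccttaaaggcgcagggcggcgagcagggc
Aligned end to end, 247 of 250 positions were identical (98.8%). Each holds 1 match, beginning 104 bases before the start. Among all 32851 RefSeq promoters of this length, 6.69% held a match. By gene, with any start counted, 7 of the 10 heat shock genes had a RefSeq promoter here and 5 of those held a match (Hspa1a, Hspa1b, Hspb1, Hspd1 and Hspe1), as did 1 of 16 immediate early genes and 7.73% of all genes. Hspd1 holds the match and differed little between libraries, and Dnajb1 has none in this window and differed more than 2-fold between both platform intervals. A match describes these letters and does not show that a factor binds.

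**Figure D5:**
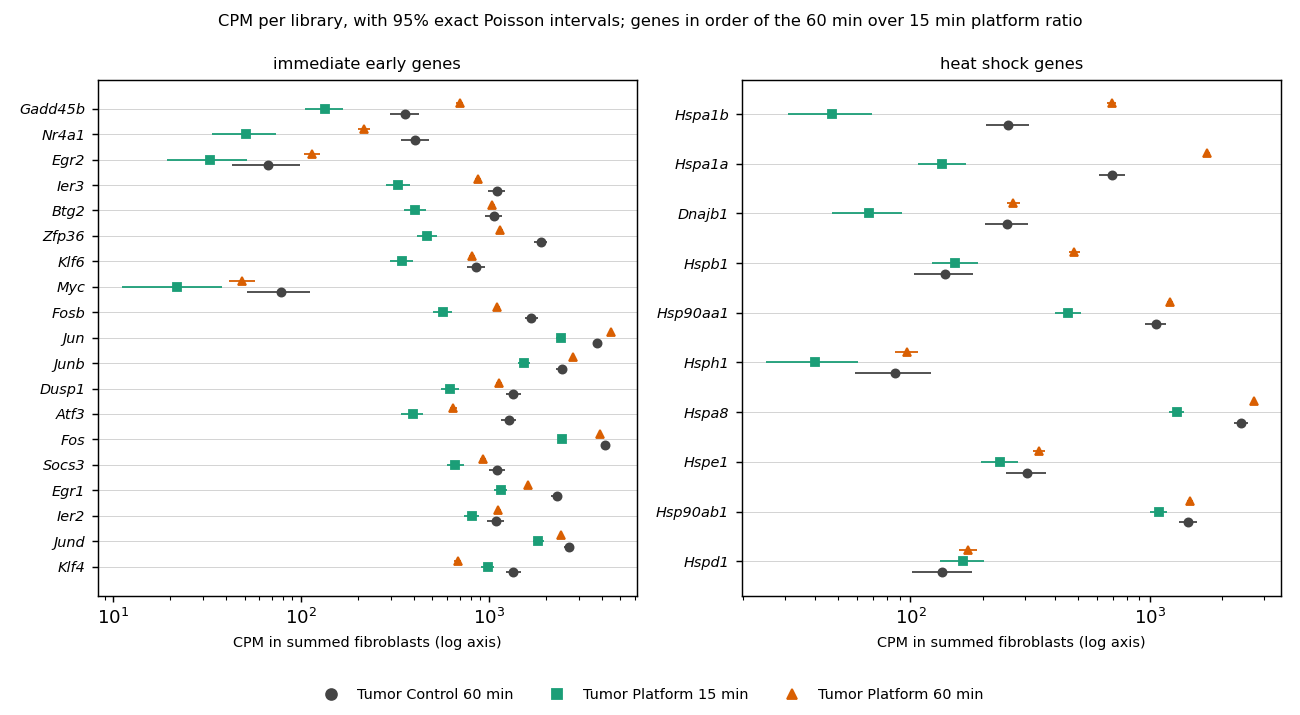
Levels of immediate early and heat shock genes in summed fibroblasts, in CPM on a log axis, with 95% exact Poisson intervals. Tumor Platform 15 min (squares) is the lowest of the 3 libraries for 18 of 19 immediate early genes, Klf4 being the exception, and for 8 of 10 heat shock genes.

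The low 15 min level of both summed lists was also seen within sub-clusters, while the order of the other 2 libraries varied. Summed immediate early and summed heat shock levels were lower at 15 min than at 60 min in the platform in 5 of 5 sub-clusters, and lower at 15 min than in the control in all 4 that held control cells. In sub-cluster 2, with 12, 30 and 38 cells, immediate early genes summed to 27260, 18000 and 27054 CPM and heat shock genes to 4998, 3758 and 7283 CPM. In sub-cluster 3, with 9, 12 and 42 cells, the sums were 37090, 9236 and 26435 CPM and 8333, 3280 and 6246 CPM. Adventitial genes summed to 12808, 17659 and 16859 CPM in sub-cluster 2, where both platform intervals were close, and to 7656, 10295 and 7062 CPM in sub-cluster 3, where 15 min was highest. Matricellular genes summed to 21983, 19770 and 32343 CPM in sub-cluster 1, with 9, 8 and 103 cells. In sub-cluster 4 they summed to 33037, 32921 and 31870 CPM. Postn was lower at 60 min than in the control in all 4 sub-clusters with control cells, and Thbs4 in none. Whether the mix of sub-clusters accounts for differences between the summed libraries was not tested. By gene, Fos and Jun were each lower at 15 min than in the control in 3 of the 4 sub-clusters with control cells. Sub-clusters were made with these genes in, and the control gave at most 12 cells to any of them. The 15 min interval, 1 library, gave 8, 8 and 5 cells to sub-clusters 1, 4 and 5.

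Other classes of tumor cells were set beside the fibroblasts for these 2 lists, with no test of the difference. Heat shock sums at 15 min were below the control and below 60 min in the platform in each class: 0.653 of the control in pericytes, 0.784 in endothelial cells, 0.901 in leukocytes, 0.708 in epithelial cells and 0.544 in fibroblasts. Immediate early sums did not share 1 order. At 15 min they were 0.525 of the control in fibroblasts, 0.900 in pericytes, 0.957 in endothelial cells, 1.06 in epithelial cells and 2.61 in leukocytes. The classes were called by Rgs5, Pecam1, Ptprc and Epcam counts and held 130 pericytes, 1256 endothelial cells, 2799 leukocytes and 8734 epithelial cells.

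As a summed list, inflammatory genes were highest in the control. The 22 listed genes summed to 9592, 5456 and 5745 CPM. Within sub-clusters, the 60 min sum was below the control in 3 of the 4 that held control cells. Sub-cluster 3 was the exception, with 13390, 9314 and 17596 CPM. The 15 min sum was below the control in all 4. Of 17 that entered, 6 were lower and 1 higher past 2-fold at 60 min in the platform over the control (median log2 ratio -0.73), against 4.91% lower and 6.53% higher among all genes. At 15 min over the control 8 were lower and none higher (median -0.84), against 4.17% lower among all genes. At 60 min over 15 min 6 were higher and none lower, with a median of 0.06, against 4.77% higher and 6.62% lower among all genes. Il6, a cytokine of inflammatory fibroblasts (chromosome 5, 30013114 to 30019981, plus strand), stood at 283, 29.0 and 134 CPM from 102, 16 and 424 UMIs. Its 15 min level was 0.102 of the control (0.0564 to 0.174). The neutrophil chemokine Cxcl1 stood at 306, 32.6 and 369 CPM, where 3 cells held the 15 min UMIs, and the monocyte chemokine Ccl2 at 206, 18.1 and 223 CPM. Without the upper limits the 60 min over 15 min ratio was 4.13 rather than 11.3 for Cxcl1 and 1.99 rather than 12.3 for Ccl2. Has1, which makes hyaluronan (chromosome 17, 17843323 to 17855205, minus strand), followed another order, with 1303 CPM in the control and 419 and 378 CPM in the platform intervals. Cxcl12 likewise stood at 614, 263 and 261 CPM, with 29.9% of the control UMIs in 1 cell. It was no longer past 2-fold without the upper limits, at 0.830 of the control at 15 min and 0.825 at 60 min. The complement genes C3 (2264, 1496 and 1060 CPM) and C4b (1628, 1489 and 772 CPM) were lower past 2-fold at 60 min over the control, C3 only with the upper limits (0.504 without). Ccl11, an eosinophil chemokine (403, 401 and 417 CPM), and the alarmin Il33 (286, 277 and 317 CPM) hardly differed. Saa3 was the member higher at 60 min, with 5.56, 3.63 and 163 CPM from 2, 2 and 515 UMIs, a ratio over the control of 29.3 (8.06 to 242) that rested on 11 cells of Tumor Platform 60 min.

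Growth factor and signalling genes were split. Among 13 entered TGF-beta and BMP genes, 2 were higher and 1 lower past 2-fold at 60 min in the platform over the control, counts to be read beside 6.53% and 4.91% of all genes. The ligands Tgfb1 (41.7, 70.7 and 122 CPM) and Tgfb3 (58.3, 58.0 and 120 CPM) were the higher ones. Id1, a target of BMP signalling, was the lower one and stood at 117, 5.44 and 57.8 CPM from 42, 3 and 183 UMIs, with 54.8% of the control UMIs in 1 cell. Its 15 min level was 0.0466 of the control, or 0.231 without the upper limits. Id3 stood at 592, 221 and 766 CPM. Fst, which binds activins, was highest at 15 min with 66.7, 248 and 99.4 CPM. In the Wnt list of 5 entered genes, the secreted inhibitors Sfrp2 (289, 564 and 824 CPM) and Dkk3 (33.3, 36.3 and 117 CPM) were higher past 2-fold at 60 min over the control. Among all genes 6.53% were higher in that comparison. Of 15 entered growth factor and receptor genes 3 were higher and 1 lower there, where 1 of 15 lower is near the 4.91% of all genes. Pdgfrb, Igfbp2 (211, 103 and 496 CPM) and the insulin-like growth factor binding protein Igfbp4 (964, 774 and 2257 CPM) were higher, and Fgf7, a growth factor for epithelium (83.3, 79.8 and 39.1 CPM), was lower.

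Of the matrix proteases, Mmp13, a collagenase (chromosome 9, 7272514 to 7283331, plus strand), stood at 36.1, 7.25 and 247 CPM from 13, 4 and 784 UMIs. In the control 92.3% of its UMIs lay in 1 cell, and the 60 min UMIs lay in 44 cells. Its 60 min over 15 min ratio was 34.1 (13.3 to 126), and 4.63 without the upper limits. The gelatinase Mmp2 (1122, 1017 and 1344 CPM) and the membrane protease Mmp14 (575, 504 and 585 CPM) differed by less than 2-fold in every comparison. Mmp11 stood at 91.7, 123 and 189 CPM, and the inhibitor Timp1 at 517, 350 and 814 CPM.

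Several of the most different single genes were carried by a minority of cells. Reg1, a secreted lectin, stood at 5.56, 1.81 and 144 CPM from 2, 1 and 455 UMIs, and the last came from 28 of 278 cells. Its ratio at 60 min over the control was 25.9 (7.12 to 214). Its ratio over 15 min was 79.2 (14.1 to 3135), which was 2.16 without the upper limits. Aqp2, a water channel best known from kidney collecting duct, stood at 8.33, 7.25 and 107 CPM, in 3, 2 and 70 cells, and in 0.0357% of leukocytes unthinned. Its ratio over the control was 12.8 (4.36 to 62.6), or 4.12 without the upper limits. The Notch target Heyl rested on 1 control UMI, with 2.78, 36.3 and 60.9 CPM and a ratio of 21.9 (3.89 to 871), or 6.26 without the upper limits. Spry1, an inhibitor of growth factor signalling, stood at 22.2, 56.2 and 162 CPM and was found in 153 of the 278 fibroblasts. Its ratio over the control was 7.29, or 4.48 without the upper limits. Among genes highest in the control were Krt8 and Krt18 (156, 63.5 and 27.8 CPM), most of whose control UMIs lay in 1 cell each. Their 60 min over control ratios of 0.105 and 0.179 were 0.385 and 0.391 without the upper limits. S100a4 (242, 149 and 50.2 CPM) and the hyaluronan receptor Cd44 (211, 85.2 and 57.8 CPM) were spread over 11 and 17 of the 35 control cells, and the ratio of S100a4 was 0.323 rather than 0.208 without the upper limits. At 15 min the steroid-metabolising enzyme Akr1c18 was highest, with 25, 154 and 24.9 CPM. Its ratio over the control was 6.17, or 1.33 without the upper limits. The atypical chemokine receptors Ackr1 (75.0, 81.6 and 15.5 CPM) and Ackr2 (13.9, 67.1 and 13.6 CPM) were lower past 2-fold at 60 min than at 15 min in the platform.

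None of 6 entered hypoxia and glycolysis genes was past 2-fold in any comparison, where 4.17% to 6.62% of all genes were in each direction. Ldha, lactate dehydrogenase, stood at 333, 281 and 300 CPM. Of 5 entered interferon-stimulated genes 2 were higher past 2-fold at 15 min over the control, against 6.51% of all genes. Isg15 was the more abundant of these, with 55.6, 140 and 110 CPM, and 53.2% of its 15 min UMIs lay in 1 cell. Cell cycle genes summed to 44.4, 47.2 and 81.4 CPM over 13 genes, and Mki67, the proliferation marker, was found in 0, 1 and 10 cells. Of 7 antigen presentation genes Cd74 alone reached a mean of 30 CPM, with 52.8, 65.3 and 48.0 CPM. Adipoq, a marker of mature adipocytes, was at 0 in all 3 libraries, and so was the tendon gene Tnmd.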

How the data were processed

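The data were 10x Genomics 3' gene expression libraries from tumor cells. The deposited matrix holds counts, whole UMI counts per gene and cell, which the authors made with Cell Ranger 3.1.0 on mm10 and aggregated over libraries with depth equalized by subsampling reads, so levels of rare genes rest on thinned reads. Each cell's library was read from its barcode suffix and the deposited aggregation order.

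Kept cells, fibroblasts and other classes were called by the gene limits given above, with at least 3 Rgs5, 2 Pecam1, 2 Ptprc or 1 Epcam UMI for the other classes. Doublets were treated only through the upper limit on genes. Scrublet marked 1.12 to 2.17% of cells per library. Of the 540 cells over 4000 genes that met the fibroblast gene rule, it marked 9 (1.67%). Whether the others were doublets was not tested. UMIs were summed per library, scaled to equal totals (CPM), and compared as ratios for genes with a mean of at least 30 CPM. A library at 0 was given 3 UMIs as a floor. Each condition was 1 library, so no test was run. Shares carry exact Clopper-Pearson intervals and sums exact Poisson intervals. For sub-clusters, 1000 variable genes, 15 components, 15 neighbours and Leiden clustering at resolution 0.5 were used.

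Named genes were the 10 largest and 10 smallest ratios per comparison (at least 30 UMIs and 10% of cells in the higher library; predicted, ribosomal and mitochondrial genes left out), the listed genes, the 30 most abundant, the 20 with the highest ratio over other cells, and 10 leading genes per sub-cluster. The members and the lists were chosen with earlier results of these data known. Alternatives covered thresholds, scaling (including TMM from edgeR 4.0.16 in R 4.3.3), thinning, filters and clustering. Scripts used Python 3.11.15, scanpy 1.11.5, scipy 1.17.1 and pandas 2.3.3, and the fold computation was checked on simulated data. Gene positions are from the GENCODE annotation of GRCm38.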

Additional observations from a re-analysis of the deposited data

How the results depend on the processing

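With 1 library per condition no replicate could be left out, and no alternative measures the spread between animals or runs. No paired analysis was possible because the result comes from no test and each group holds 1 library. The control gave 35 fibroblasts, so its sums limit each comparison with it. The fibroblast share at 60 min in the platform was above that of the control under all 8 alternatives run; with no ceiling on genes or on the mitochondrial percentage the ratio was 5.19, and 8.96 for the weighted platform sum. Counts of genes past 2-fold depended on the settings. In the order 60 min over control higher and lower, 15 min over control higher and lower, and 60 min over 15 min higher and lower, they were 673, 508, 799, 548, 450 and 485 with members thinned to 2000 UMIs. They were 800, 530, 953, 468, 472 and 722 from a mean of 10 CPM, and 81, 69, 26, 69, 96 and 82 from a mean of 100 CPM. At 1.5-fold they were 797, 631, 870, 423, 485 and 775, and at 3-fold 79, 35, 53, 69, 71 and 71. With TMM factors 170 were higher at 15 min over control and 170 lower at 60 min over 15 min. Without the upper limits, an alternative chosen after seeing the data, they were 174, 181, 47, 85, 154 and 153, and Ildr2, higher at 15 min over control by 4.98-fold, turned to 0.925. The causes were not tested. A resolution of 1 gave 9 sub-clusters (adjusted Rand index to those described 0.680), and leaving immediate early and heat shock genes out gave 5 (0.626), so sub-cluster membership depended on both. Of 973 other values for lists and named genes, 695 stayed within their counting interval, 277 lay outside it and 1, Ildr2, had been past 2-fold and changed direction. On either side of 2-fold, 33 of the 973 crossed a ratio of 1, of which 14 did so without the upper limits. Of 92 ratios past 2-fold, 21 no longer were after thinning and 21 without the upper limits.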
